A study of Mus musculus with 6 samples.

Results

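Interferon-stimulated genes were examined in endothelial cells of the mouse liver after dietary iron loading. The set has 34 genes chosen by symbol, with earlier results of these data known. It holds 26 that are best known from the type I interferon response and 7 guanylate-binding protein (GBP) and immunity-related GTPase (IRG) genes. The GBP and IRG genes are best known from the response to interferon-gamma, the type II interferon. Irf1, which both types induce, is given by itself. All 34 had a row among the 39179 genes of the deposited table, 33 under their own symbol and Ifit3b under an older name, matched by its Ensembl identifier. RNA came from wild-type 129S6/SvEvTac male mice, 3 biological replicates per diet and 6 libraries in all. From the age of 3 weeks the mice ate a purified AIN-93G diet for 4 weeks and were sampled at 7 weeks. Iron in the control_iron diet was ferric citrate at 37 ppm, and in the high_iron diet carbonyl iron at 10000 ppm, so the iron compound differs between the diets as well as its amount. The sort kept CD31+ CD146+ cells that stained for none of CD64, MHC class II, CD45 and lineage markers. The labels do not say whether a library is 1 mouse or a pool.

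Interferons are secreted signals of infection. Type I interferons bind the receptor made of IFNAR1 and IFNAR2 and, through the kinases JAK1 and TYK2, form a complex with STAT2 and IRF9 that binds an element called ISRE in the promoters of target genes. Interferon-gamma binds IFNGR1 and IFNGR2 and acts through an element called GAS, while IRF1, which this pathway induces, binds ISRE-like sites. Many of the targets block viruses inside the cell, and GBP and IRG proteins act on the membranes around intracellular microbes. Cells that receive little interferon still hold a low tonic level of many of these transcripts.

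Libraries held 12963510 to 21663543 reads assigned to genes, and 3 reads correspond to 0.139 to 0.231 CPM, a floor that covers counting error only. Levels are CPM, reads of a gene scaled to library size, and levels of different genes are compared only as RPKM, which also divides by gene length. The endothelial genes on the marker list were abundant in every library (summed level of 12 genes 22358 to 24300 CPM in control_iron and 20918 to 21387 CPM in high_iron). Their sum was thus lower in every high_iron library. Of the 12, 10 had log2 fold changes below 0 (median -0.19), 8 had overlapping groups and none passed the threshold. Markers of Kupffer cells and macrophages were 15 genes, none at 0 in every library. They summed to 62.8 to 168 CPM in control_iron and to 248 to 471 CPM in high_iron. The log2 fold changes of the 14 tested were above 0 throughout (median 1.70), against 49.5% of all genes tested. For 11 of the 14, every high_iron library lay above every control_iron library (9.46% of all genes tested). The threshold was passed by 3, Clec4f, Csf1r and Marco (0.832% of all genes tested rose). Lymphocyte markers summed to 3.85 to 7.35 CPM and to 13.0 to 20.3 CPM. Of 15 listed, 3 reached 1 CPM in at least 3 libraries and were tested. All 3 were higher in every high_iron library (9.46% of all genes tested, median log2 fold change 1.17). Of these, 1, Ighm, passed the threshold (0.832% of all genes tested rose). Genes this low can reach 1 CPM through the 3 high_iron libraries alone, so the filter may partly fix this direction. Monocyte and neutrophil markers summed to 2.14 to 4.84 CPM and 4.19 to 19.1 CPM. Hepatocyte markers summed to 236 to 1087 CPM and 557 to 1066 CPM, and 8 of 10 had overlapping groups. All 10 had fold changes above 0, and none passed. Kupffer cell, macrophage and lymphocyte markers moved with the diet beside every result given here. The part of these and of the other markers in those results was not tested. In sorted bulk RNA, fewer cells of a type and less RNA per cell cannot be told apart.

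Rsad2 was the one interferon-stimulated gene that passed the test, with a level 1.95-fold higher on the high-iron diet. Most of the others lay slightly higher without passing. A log2 fold change above 0 was found for 28 of the 32 members tested (49.5% of all 12980 genes tested), and the median was 0.38 (-0.003 over all genes tested). For 13 of the 32, every high_iron library lay above every control_iron library (9.46% of all genes tested), and for none did every high_iron library lie below (8.44%). The set was chosen with earlier results of these data known, so these values describe it and are no independent test. The test was limma on log2(CPM + 1) over all genes with at least 1 CPM in at least 3 libraries, adjusted by Benjamini-Hochberg and called under 0.05. By this rule 1 of 32 members changed, against 1.02% of all genes tested, and 0.832% rose. At an unadjusted p under 0.05, 13 members were higher (7.30% of all genes tested) and 0 were lower (4.82%). The added 1 CPM makes fold changes of low genes smaller than their true size. Oas2 and Mx1 did not pass the filter on low values. Zbp1, the lowest member tested, passed it through 1 control_iron and 2 high_iron libraries.

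Other procedures called between 0 and 3 members. edgeR called Rsad2 alone (0.716% of all genes tested rose by its rule), as did limma with a filter at a mean of 5 CPM (0.931%). DESeq2 called 3 members, Rsad2, Ifit3b and Oasl2 (2.53%), limma with library weights 2 (3.01%) and limma with the replicate number as a block 3 (2.46%). Without control_iron replicate 1, 2 or 3 the 1 call was Rsad2 (1.15%, 0.601% and 0.362%), and without high_iron replicate 1, 2 or 3 no member was called (0.354%, 0.300% and 0.177%).

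**Figure D1:**
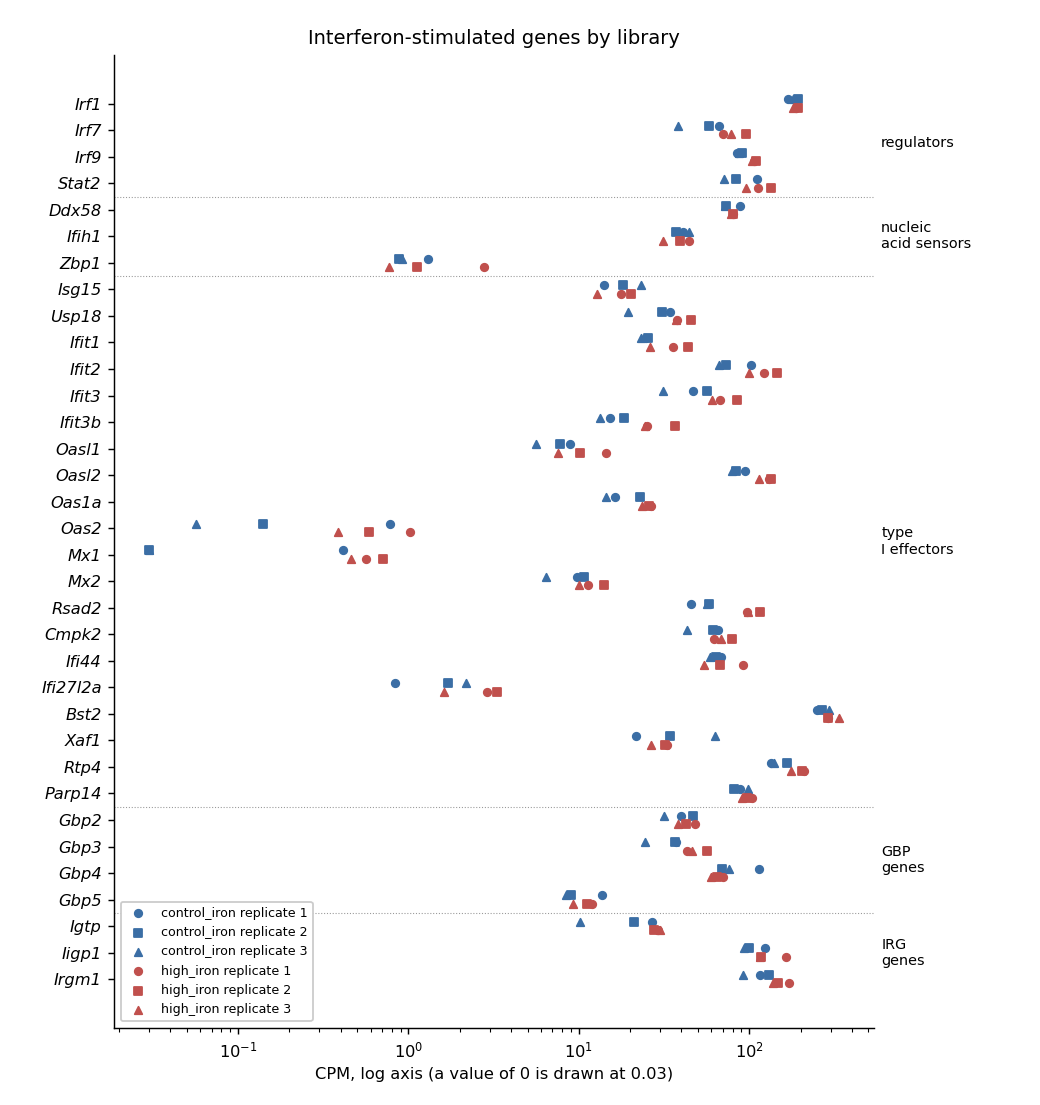
Level of each of the 34 genes in the 6 libraries, in CPM on a log axis, ordered by role; blue points are control_iron and red points high_iron libraries, the shape gives the replicate, and values of 0 are drawn at the left end. Rsad2 is at 45.7 to 57.7 CPM in control_iron and 96.7 to 116 CPM in high_iron libraries, whereas Oas2 and Mx1 stay near or under 1 CPM.

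Many members share a promoter motif. The motif was not used to choose them, but they were chosen as known interferon targets, and interferon acts through ISRE. The share of members with it is thus no independent result. RefSeq promoter windows of GRCm38.p6, 250 bases before to 50 bases after the start site, were matched to 24 of the 34 members by symbol. The core of the ISRE, GAAA and GAAA with any 2 bases between them, on either strand, was present in 15 of these 24 (62.5%), beside 3.99% of all 27025 genes with a window. Among type I members with a window it was found in 10 of 18, and among GBP and IRG members in 5 of 5. The GAS letters TTCNNNGAA, which read the same on both strands, were present in 6 of the 24 (25%), beside 9.55% of all genes. Tested members whose groups did not overlap held the ISRE core in 8 of 11 cases, and tested members whose groups overlapped in 7 of 13. A match is a description of the letters and no evidence of binding, and the sequence is that of the C57BL/6J reference, not of the 129S6 mice. The windows below show the 200 bases before the start site, 5′ to 3′ on the strand of the gene, for Rsad2, which passed the test, for the near-identical pair Ifit3 and Ifit3b, for Isg15, a gene with 3 overlapping ISRE cores whose groups overlapped, for Gbp3 and Igtp as GBP and IRG genes, and for Irf1, which has a GAS match and no ISRE core there. Capitals mark ISRE cores and GAS matches.
Rsad2 (chr12:26456453-26456652, minus strand): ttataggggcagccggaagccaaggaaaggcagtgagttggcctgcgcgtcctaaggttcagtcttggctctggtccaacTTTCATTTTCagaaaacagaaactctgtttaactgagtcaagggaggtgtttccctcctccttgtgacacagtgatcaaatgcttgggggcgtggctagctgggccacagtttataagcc
Ifit3 (chr19:34583329-34583528, plus strand): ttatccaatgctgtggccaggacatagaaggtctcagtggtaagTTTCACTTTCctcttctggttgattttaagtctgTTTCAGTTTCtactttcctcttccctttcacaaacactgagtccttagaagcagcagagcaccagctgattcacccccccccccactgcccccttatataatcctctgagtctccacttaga
Ifit3b (chr19:34607757-34607956, plus strand): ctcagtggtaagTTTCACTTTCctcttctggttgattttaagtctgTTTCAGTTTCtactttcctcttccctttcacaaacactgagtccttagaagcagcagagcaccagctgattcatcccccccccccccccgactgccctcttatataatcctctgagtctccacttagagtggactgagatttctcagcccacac
Isg15 (chr4:156200819-156201018, minus strand): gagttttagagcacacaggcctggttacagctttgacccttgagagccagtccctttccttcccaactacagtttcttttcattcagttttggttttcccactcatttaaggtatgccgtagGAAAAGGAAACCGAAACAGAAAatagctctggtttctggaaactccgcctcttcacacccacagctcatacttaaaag
Gbp3 (chr3:142559844-142560043, plus strand): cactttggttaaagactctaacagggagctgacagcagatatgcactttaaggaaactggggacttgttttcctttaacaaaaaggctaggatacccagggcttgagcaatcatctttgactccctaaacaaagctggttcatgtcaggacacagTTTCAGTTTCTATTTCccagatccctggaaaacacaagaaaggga
Igtp (chr11:58199356-58199555, plus strand): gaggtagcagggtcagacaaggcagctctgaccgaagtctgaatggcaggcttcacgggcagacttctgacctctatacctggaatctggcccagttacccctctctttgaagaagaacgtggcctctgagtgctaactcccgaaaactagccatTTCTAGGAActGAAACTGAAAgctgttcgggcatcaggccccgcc
Irf1 (chr11:53769814-53770013, plus strand): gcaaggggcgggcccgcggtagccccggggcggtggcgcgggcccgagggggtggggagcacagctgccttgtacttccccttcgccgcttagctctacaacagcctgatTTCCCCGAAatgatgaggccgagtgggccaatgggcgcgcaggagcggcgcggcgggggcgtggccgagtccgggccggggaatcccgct

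Rsad2 had 1 ISRE core in these 200 bases, beginning 120 bases before the start site. Ifit3 and Ifit3b carried 2 each, 156 and 122 bases before the start in Ifit3 and 188 and 154 bases before it in Ifit3b. In Isg15 the matches overlap to form 1 run that begins 78 bases before the start. Gbp3 had 2 overlapping cores from 45 bases before the start. Igtp was the gene of these 7 with both motifs, a GAS match 45 and an ISRE core 34 bases before the start.

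Transcripts of the interferons themselves were nearly absent. Of 21 ligand genes, 19 were at 0 in all 6 libraries, among them Ifnb1, which encodes interferon-beta, and Ifng, which encodes interferon-gamma. Ifna2 and Ifnk had at most 2 reads in a library, so no ligand passed the filter. Receptor genes were well expressed: Ifnar1 was at 114 ± 29.9 CPM on the control_iron diet against 127 ± 1.93 CPM on high_iron (SD, n = 3 each), and Ifngr1 at 75.6 ± 14.5 and 79.7 ± 5.55 CPM. The fold changes of Ifnar1, Ifnar2, Ifngr1 and Ifngr2 lay between -0.03 and 0.19 and none passed. Ifnlr1, which encodes the receptor chain specific to interferon-lambda, was at 0 in all libraries.

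Of 16 tested receptor and signalling genes, limma and edgeR each called 1, Socs3 (0.832% and 0.716% of all genes tested rose by their rules). DESeq2 called 2 and the replicate block 3, and these procedures also called more of all genes tested higher (2.53% and 2.46%). By an unadjusted p under 0.05, 4 were higher (7.30% of all genes tested). Socs3 encodes a feedback inhibitor of JAK-STAT signalling that interleukin 6 and related cytokines induce most strongly. Its control_iron libraries were at 42.3, 38.9 and 29.2 CPM and its high_iron libraries at 67.8, 73.7 and 74.6 CPM. The groups were apart, with a log2 fold change of 0.97 ± 0.16 (SE, limma adjusted p = 0.031), and with 1 library left out the call held without control_iron replicate 1 and was lost in the 5 fits without any other (adjusted p 0.016 to 0.18). Socs1, the feedback inhibitor more closely tied to interferon, was at 16.2, 41.4 and 60.5 CPM on the control_iron diet against 60.1, 63.3 and 72.9 CPM on high_iron. Its groups overlapped and the control libraries were widely spread (log2 fold change 0.90 ± 0.38 SE, limma adjusted p = 0.38). Ptpn6, a phosphatase gene of blood cells, had a fold change of 1.41 ± 0.32 (SE) at a level of 2.70 ± 1.81 and 8.2 ± 0.790 CPM (SD, n = 3 each), and did not pass (adjusted p = 0.077 with limma and 0.013 with DESeq2).

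Among the regulators in the set, Irf7 encodes the factor that amplifies type I interferon production and is itself an interferon target. It was at 66.4, 58.3 and 38.1 CPM on the control_iron diet against 70.4, 95.7 and 78.3 CPM on high_iron. Control_iron replicate 3 stood lowest, and the groups did not overlap, by a margin that is small beside the spread. The log2 fold change was 0.60 ± 0.21 (SE, 95% interval 0.13 to 1.08), with a limma adjusted p of 0.29. Irf9, the DNA-binding part of the STAT complex, had close replicates: 85.2, 91.2 and 87.3 CPM on the control_iron diet against 107, 109 and 104 CPM on high_iron. The groups were apart and the difference was small, 1.22-fold (log2 fold change 0.28 ± 0.12 SE, limma adjusted p = 0.39). Stat2, its partner, was at 111, 83.1 and 70.8 CPM and at 113, 134 and 96.0 CPM, with overlapping groups (0.38 ± 0.19 SE, limma adjusted p = 0.45). Irf1, the factor that interferon-gamma induces most directly, stayed within a narrow band, at 169, 192 and 181 CPM and at 189, 193 and 181 CPM. Its 95% interval ran from -0.21 to 0.32, so a change of Irf1 as large as that of Rsad2 lies outside it.

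The 3 genes for sensors of foreign nucleic acid showed no shared direction. Ddx58, which encodes the RNA sensor RIG-I, was at 88.4, 72.8 and 72.3 CPM on the control_iron diet against 80.4, 80.4 and 77.8 CPM on high_iron. The high_iron values lay inside the control range (log2 fold change 0.04, 95% interval -0.26 to 0.33). Ifih1, which encodes the RNA sensor MDA5, had a fold change of -0.10 (95% interval -0.47 to 0.28). Zbp1, which encodes a sensor of Z-form nucleic acid linked to cell death, was near 1 CPM in 5 libraries and at 2.77 CPM in high_iron replicate 1. Of 21 tested genes of nucleic acid sensing and interferon induction outside the set, 0 passed limma (1.02% of all genes tested). By an unadjusted p under 0.05, 5 were higher and 0 lower (7.30% and 4.82% of all genes tested). DESeq2 called 2 against 0 with edgeR (2.53% and 0.716% of all genes tested rose by their rules). The 4 with the smallest p were Irf5, Tbk1, Irf8 and Unc93b1. Tbk1, the kinase gene that activates IRF3, was at 72.4 ± 4.28 and 101 ± 5.72 CPM (SD, n = 3 each; limma adjusted p = 0.14), and Irf5, a factor gene active in macrophages, at 2.03 ± 0.871 and 5.73 ± 1.53 CPM (limma adjusted p = 0.11). Irf8, a factor gene of myeloid and endothelial cells, was at 92.6 ± 21.1 and 133 ± 28.4 CPM (limma adjusted p = 0.33), and Unc93b1, the gene of a chaperone that carries nucleic acid receptors to endosomes, at 137 ± 24.2 and 175 ± 7.85 CPM (limma adjusted p = 0.38). Macrophage markers were also higher in sum in the high_iron libraries, as given above, and their part in these values was not tested.

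Rsad2 encodes viperin, a radical SAM enzyme with an iron-sulfur cluster that makes a chain-terminating nucleotide against viral polymerases. The gene (ENSMUSG00000020641) spans chr12:26442746-26456452 on the minus strand of GRCm38, with 8 merged exons, no overlapping gene and no near-identical copy in GENCODE M21. Its level was 45.7, 57.7 and 56.2 CPM on the control_iron diet against 96.7, 116 and 98.3 CPM on high_iron. The lowest high_iron library was well above the highest control library, and the spread inside each group was small beside the gap. The means were 53.2 ± 6.56 and 104 ± 10.9 CPM (SD, n = 3 each), and the log2 fold change 0.95 ± 0.15 (SE, 95% interval 0.62 to 1.28; limma adjusted p = 0.021). The adjusted p was 0.034 with edgeR, and it missed the threshold without high_iron replicates 1, 2 or 3 (0.060, 0.11 and 0.13), where the fold change was 1.00, 0.87 and 0.99.

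Cmpk2 encodes a mitochondrial nucleotide kinase that supplies the substrate of viperin. It lies head to head with Rsad2, 12752 bases between the start sites. Cmpk2 was at 65.4, 60.9 and 43.2 CPM on the control_iron diet against 62.1, 79.1 and 68.1 CPM on high_iron. The groups overlapped, and the fold change was 0.31 ± 0.18 (SE, 95% interval -0.09 to 0.72; limma adjusted p = 0.51). Intervals of the neighbours overlap slightly, from 0.62 to 0.72, and the difference between the genes was not tested.

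The IFIT genes encode RNA-binding proteins that recognise viral messages, and all 4 members form a cluster on chromosome 19, from the start of Ifit2 at 34550694 to the end of Ifit1 at 34650009. Ifit3b was at 15.2, 18.5 and 13.3 CPM on the control_iron diet against 25.2, 36.8 and 24.6 CPM on high_iron, the second largest fold change of the set at 0.83 ± 0.21 (SE, adjusted p = 0.12 with limma and 0.012 with DESeq2). Ifit3 was at 47.0, 56.9 and 31.3 CPM and at 67.7, 85.2 and 60.9 CPM (0.68 ± 0.22 SE, limma adjusted p = 0.25). In both genes the groups were apart and high_iron replicate 2 stood highest. Their transcripts match each other at 95% identity or more over 97.4% of Ifit3 and 84.8% of Ifit3b, so reads may be split between them. Summed, the pair was at 60.7 ± 15.5 and 100.1 ± 19.3 CPM (SD, n = 3 each), a 1.65-fold difference. Ifit2 was at 102, 73.3 and 66.2 CPM against 122, 145 and 99.3 CPM, with 1 control library above the lowest high_iron library (0.60 ± 0.20 SE, limma adjusted p = 0.24). Ifit1 was at 24.7, 25.6 and 23.1 CPM against 35.6, 43.6 and 26.1 CPM. High_iron replicate 3 was barely above the control range, and the fold change was 0.48 ± 0.20 (SE, limma adjusted p = 0.38).

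Members of the OAS family make, or resemble enzymes that make, the 2-5A messenger that activates RNase L. Oasl2 was at 94.4, 83.3 and 79.2 CPM on the control_iron diet against 130.2, 135 and 115 CPM on high_iron. These groups were clearly apart, and with a log2 fold change of 0.56 ± 0.13 (SE) Oasl2 had the second smallest adjusted p of the set, 0.096 with limma and 0.011 with DESeq2. Oasl1, whose start site is 26304 bases away, overlapped between groups, at 8.88, 7.75 and 5.58 CPM against 14.5, 10.1 and 7.53 CPM. Oas1a was at 16.4, 22.8 and 14.5 CPM against 26.4, 25.8 and 23.4 CPM, with groups just apart (0.49 ± 0.19 SE, limma adjusted p = 0.36). Its transcript matches Oas1g over 98.7%, and the pair summed to 20.9 ± 4.83 and 29.0 ± 3.24 CPM (SD, n = 3 each). Oas2 was hardly expressed, with 1 to 20 reads per library.

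Mx1 and Mx2 encode dynamin-like GTPases that block viral replication, and Mx1 is defective in most laboratory strains. Mx1 had no read in control_iron replicates 2 and 3, and its other libraries were at 0.416 CPM on the control_iron diet against 0.565, 0.707 and 0.461 CPM on high_iron, at most 12 reads. Mx2 was at 9.77, 10.7 and 6.44 CPM against 11.3, 14.1 and 9.99 CPM, with overlapping groups (log2 fold change 0.38, 95% interval -0.15 to 0.90).

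Isg15 encodes a ubiquitin-like protein that is attached to other proteins, and Usp18 the protease that removes it and also restrains the type I receptor. The fold changes of these functionally linked genes differed in sign. Isg15 was at 14.0, 18.1 and 23.3 CPM on the control_iron diet against 17.7, 20.3 and 12.8 CPM on high_iron. The high_iron range lay almost inside the control range, and the fold change was -0.11 (95% interval -0.64 to 0.42). A GENCODE gene model, AC151275.1, matches 63.8% of the Isg15 transcript, so its reads are uncertain. Usp18 was at 34.4, 30.9 and 19.4 CPM and at 37.8, 45.3 and 37.2 CPM. Its groups were apart, and the fold change of 0.53 ± 0.22 (SE) did not pass (limma adjusted p = 0.38). The difference between the fold changes of Isg15 and Usp18 was not tested, and their intervals overlap.

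Bst2, which encodes the tetherin that holds budding viruses at the cell surface, was the most abundant member per length, at 356 ± 29.4 RPKM in control_iron and 403 ± 35.5 RPKM in high_iron libraries (SD, n = 3 each). Rtp4 came next at 93.6 ± 11.2 and 125 ± 11 RPKM, followed by Irf1 at 45.1 ± 2.82 and 46.8 ± 1.48 RPKM; these 3 levels are separated by more than their spread. Iigp1 (33.7 ± 5.06 RPKM), Ifit3 (25.8 ± 7.41), Isg15 (24.5 ± 6.19) and Irf9 (23.8 ± 0.813) followed in control_iron. The means of Ifit3, Isg15 and Irf9 lay within 1 SD of Ifit3, and that of Iigp1 lay above them by more than its own SD. Rsad2 was at 12.3 ± 1.52 RPKM, and Zbp1, Oas2 and Mx1 stood last, at 0.249 ± 0.0563, 0.0536 ± 0.0652 and 0.0279 ± 0.0483 RPKM.

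Rtp4, which encodes a protein of receptor trafficking that also restrains flaviviruses, was at 134, 167 and 139.7 CPM on the control_iron diet against 208, 205 and 177 CPM on high_iron. The groups were just apart (log2 fold change 0.42 ± 0.14 SE, limma adjusted p = 0.25), and Gm45338 on the same strand overlaps 13.9% of its exon bases. Bst2 and Parp14, the gene of a mono-ADP-ribosyltransferase, had fold changes of 0.18 and 0.12, and those of Ifi44, a gene of little known function, and Ifi27l2a, a small mitochondrial protein gene, were 0.13 and 0.49. All 4 had overlapping groups. Xaf1, a gene linked to cell death, was spread more widely over the control libraries than the shift between diets, at 21.6, 34.3 and 63.4 CPM against 33.0, 32.1 and 26.5 CPM. Its fold change was -0.24 (95% interval -0.96 to 0.47), and 0.15 without control_iron replicate 3.

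**Figure D2:**
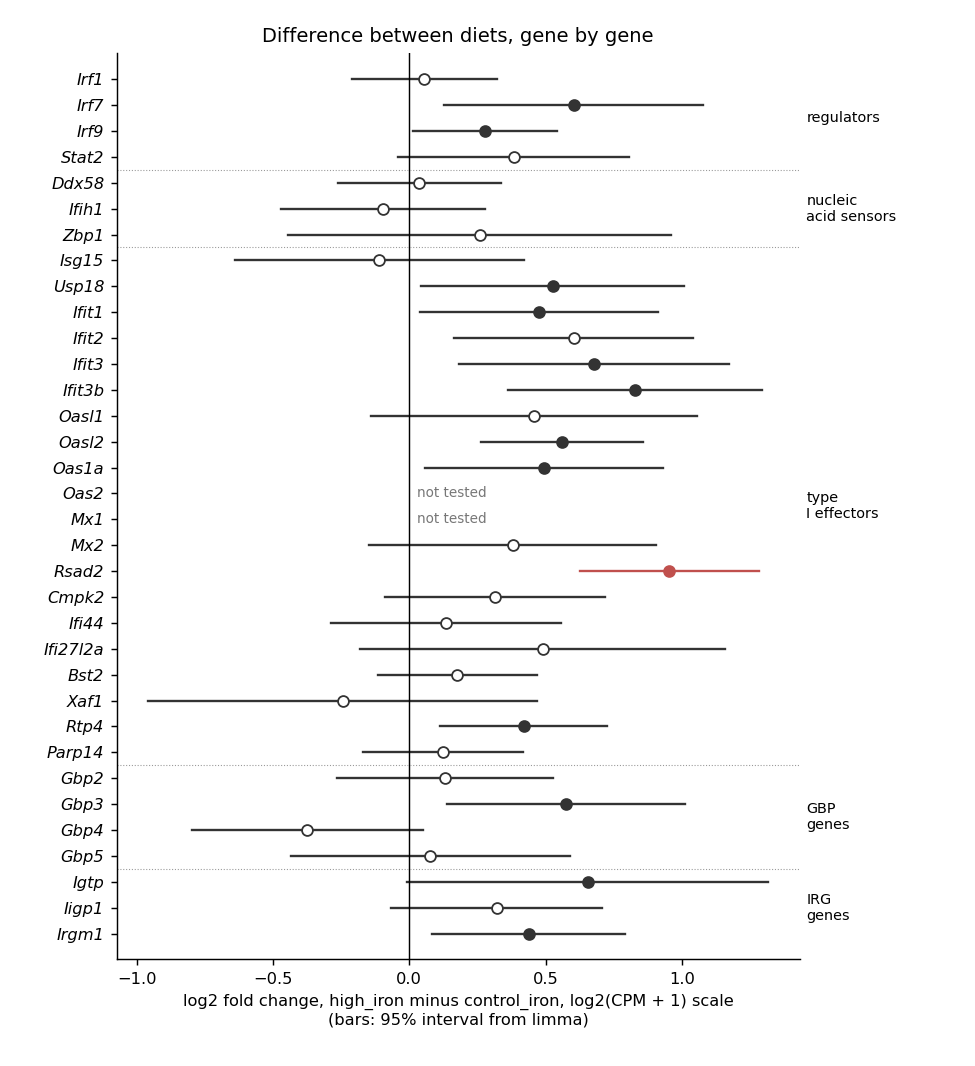
Log2 fold change of high_iron over control_iron for each of the 32 tested genes on the log2(CPM + 1) scale, with 95% intervals from limma; red marks the gene with an adjusted p under 0.05, filled points mark genes whose groups do not overlap, and open points those whose groups do. Rsad2 lies at 0.95, and 28 of the 32 points are right of 0.

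GBP and IRG genes, the type II side of the set, had fold changes from -0.37 to 0.65. Of the 7, none passed limma (1.02% of all genes tested). The count tools edgeR and DESeq2 each called 0 (0.716% and 2.53% of all genes tested rose by their rules). By an unadjusted p under 0.05, 2 were higher (7.30% of all genes tested). Gbp3 was at 37.0, 36.6 and 24.4 CPM on the control_iron diet against 43.1, 56.9 and 46.1 CPM on high_iron. The groups were apart, with control_iron replicate 3 lowest (0.57 ± 0.20 SE, limma adjusted p = 0.27). Gbp2 and Gbp5, its neighbours on chromosome 3, overlapped between groups: Gbp2 was at 39.8, 47.0 and 31.7 CPM against 48.2, 42.4 and 38.4 CPM, and Gbp5 at 13.8, 9.01 and 8.37 CPM against 12, 11.1 and 9.30 CPM. Their fold changes were 0.13 (95% interval -0.26 to 0.53) and 0.08 (-0.43 to 0.59). Gbp4, which lies on chromosome 5, had the lowest fold change of all 32, -0.37 (95% interval -0.80 to 0.05; limma adjusted p = 0.46). Its control libraries were at 114, 69.1 and 76.2 CPM and its high_iron libraries at 70.1, 65.1 and 59.7 CPM, so control_iron replicate 1 alone stands high. Without that library the fold change of Gbp4 was -0.16, and Xaf1 (-0.60) and Isg15 (-0.28) were lower.

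The 3 IRG genes each had a positive fold change. Irgm1, which encodes a regulator that keeps the other IRG proteins off the cell's own membranes, was at 115, 131 and 92.4 CPM on the control_iron diet against 171, 148 and 138 CPM on high_iron. The groups were just apart, with a fold change of 0.44 ± 0.16 (SE, limma adjusted p = 0.31). Igtp, the gene of another regulatory IRG protein, was at 26.9, 21.0 and 10.1 CPM against 29.2, 27.6 and 29.8 CPM. Igtp was tight in the high_iron group, with control_iron replicate 3 far below the rest. Its fold change was 0.65 ± 0.30 (SE, 95% interval -0.01 to 1.32), and 0.27 without that library. Iigp1, the gene of an effector that breaks the vacuoles of parasites, was at 123, 99.1 and 93.3 CPM against 164, 118 and 116 CPM, with overlapping groups (0.32 ± 0.17 SE, limma adjusted p = 0.49).

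Set side by side, the type I members and the GBP and IRG members were both above the bulk of genes in median. The median log2 fold change was 0.40 over 24 tested type I members and 0.32 over the 7 others, beside -0.003 over all genes tested. Positive values were found for 21 of 24 and 6 of 7 (49.5% of all genes tested). Groups did not overlap, with high_iron above, for 10 of 24 and 3 of 7 (9.46% of all genes tested). The ranges were -0.24 to 0.95 and -0.37 to 0.65. The difference between the classes was not tested, since the genes are not replicates. Without control_iron replicate 1 the medians were 0.44 and 0.44, and without high_iron replicate 2 the GBP and IRG median was the higher, 0.39 against 0.33. Without high_iron replicate 1 the GBP and IRG median was 0.16 and the type I median 0.39. With library weights both medians were 0.24.

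**Figure D3:**
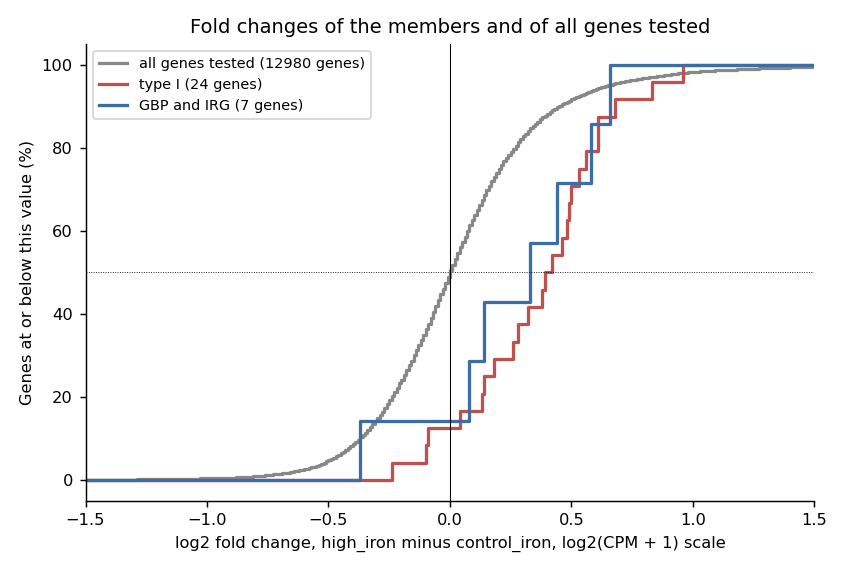
Cumulative share of genes (percent) at or below each log2 fold change, for 12980 genes tested, 24 type I members and 7 GBP and IRG members. Both member curves lie right of the curve of all genes over most of the axis and cross 50% at 0.40 and 0.32, where all genes cross it near 0.

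Single libraries weighed on these values. Control_iron replicate 3 was the lowest of the 6 libraries for 19 of the 32 tested members (28.1% of all genes tested), and for 6 of the 7 GBP and IRG genes. High_iron replicate 2 was the highest for 15 of the 32 (17.3% of all genes tested). Relative to the control mean, the median deviation of type I members on the log2 scale was 0.06, 0.06 and -0.10 in the control_iron libraries, by replicate number, and 0.48, 0.51 and 0.20 in the high_iron libraries. For GBP and IRG members it was 0.24, 0.18 and -0.27, then 0.41, 0.17 and 0.14, so high_iron replicates 2 and 3 lay below control_iron replicate 1 in that class. Over all genes tested every library was within 0.01 of 0. Isg15 and Xaf1 ran against the rest, as the members with their highest level in control_iron replicate 3. Without that library the median over all 32 members was 0.25 in place of 0.38. Leaving out each library in turn left between 26 and 30 of the 32 with a positive value, and between 13 and 19 with high_iron entirely above; the second count was 18 without high_iron replicate 3 (12.2% of all genes) and 19 without control_iron replicate 1 (19.7%).

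**Figure D4:**
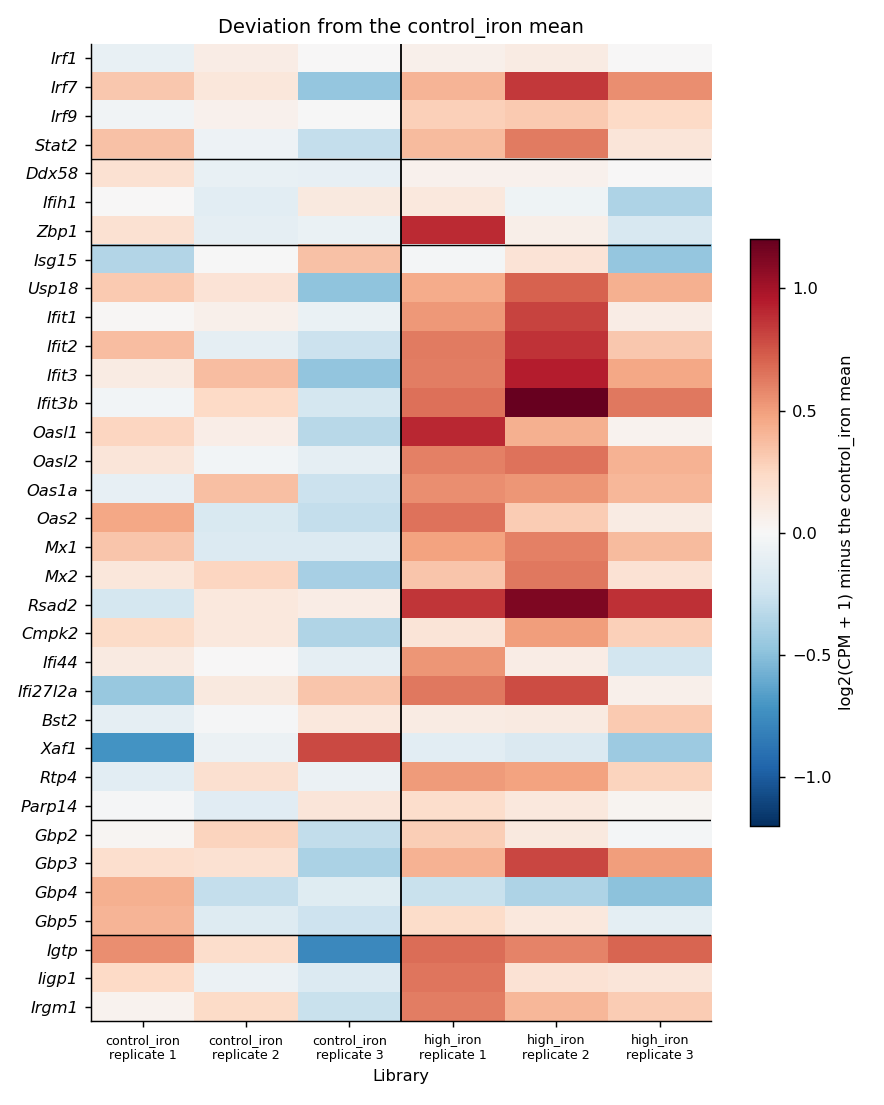
Each cell gives log2(CPM + 1) of 1 gene in 1 library minus the mean of the 3 control_iron libraries, red above and blue below, with genes in rows by role and libraries in columns. Most type I genes are red in all 3 high_iron columns, with high_iron replicate 3 paler, and control_iron replicate 3 is blue for all 7 GBP and IRG genes.

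Type I targets outside the set were slightly higher in median without passing. Of 45 that were tested, 0 passed limma (1.02% of all genes tested). By an unadjusted p under 0.05, 3 were higher and 1 lower (7.30% and 4.82% of all genes tested). Both count tools, edgeR and DESeq2, called 0 (0.716% and 2.53% of all genes tested rose by their rules). Their median was 0.19 (-0.003 over all genes tested), with 31 positive and 14 negative values (49.5% of all genes tested were positive). Every high_iron library lay above every control_iron library for 6 of the 45 and below for 0 (9.46% and 8.44% of all genes tested). Slfn2, the gene of a quiescence factor of lymphocytes and macrophages, had the largest fold change, at 1.8 ± 1.0 and 4.92 ± 0.696 CPM (SD, n = 3 each; limma adjusted p = 0.15). Ifi203, a gene of the DNA-binding HIN family, was lower in mean, at 252 ± 38.3 and 192 ± 33.1 CPM, and Trim14, the gene of an adaptor of antiviral signalling, higher, at 14.4 ± 2.5 and 21.2 ± 5.79 CPM (limma adjusted p = 0.38 and 0.41).

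Of 21 tested interferon-gamma targets outside the set, 0 passed limma (1.02% of all genes tested). Their median log2 fold change was 0.27 (-0.003 over all genes tested), with 15 positive and 6 negative values (49.5% of all genes tested were positive). Every high_iron library lay above every control_iron library for 3 of the 21 and below for 1 (9.46% and 8.44% of all genes tested). By an unadjusted p under 0.05, 3 were higher and 2 lower (7.30% and 4.82% of all genes tested). DESeq2 called 1 higher and 1 lower against 0 with edgeR (2.53% and 0.716% of all genes tested rose by their rules). Irgm2, an IRG gene beside Igtp, was at 39.6 ± 11.3 and 60.5 ± 3.22 CPM (SD, n = 3 each; limma adjusted p = 0.22), and Gm4951, related to Iigp1, at 15.0 ± 1.19 and 23.0 ± 0.736 CPM (limma adjusted p = 0.15). The chemokine genes were not higher. Cxcl9, which encodes a T-cell attractant that interferon-gamma induces strongly, was at 103, 100.4 and 167 CPM on the control_iron diet against 78.7, 42.3 and 43.6 CPM on high_iron. Every high_iron library was below every control library, with a log2 fold change of -1.17 ± 0.27 (SE, limma adjusted p = 0.083). Cxcl11 was low, at 3.44 ± 1.62 and 1.62 ± 0.600 CPM (limma adjusted p = 0.38), and Cxcl10, chosen after its values were seen, had a fold change of 0.04.

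**Figure D5:**
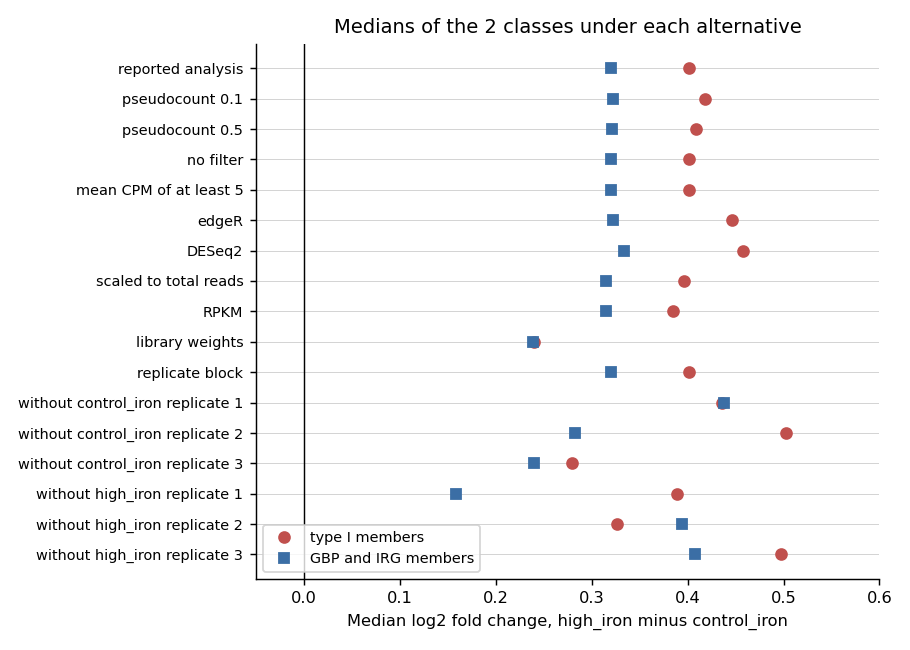
Median log2 fold change of the 24 type I members (circles) and the 7 GBP and IRG members (squares) in the reported analysis and under each of 16 alternatives, those that leave out 1 library included. All medians are above 0, from 0.24 to 0.50 for type I members and from 0.16 to 0.44 for GBP and IRG members, and their order changes between alternatives.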

How the data were processed

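Sorted-cell RNA was converted to cDNA libraries with the SMARTer Ultra Low Input kit, per the labels' protocols. STAR, HTSeq, edgeR and mm10 are named in the submitters' processing notes, without versions or roles; for annotation release and strand, nothing is stated. The authors deposited a signal named CPM, in which a gene's reads are divided by a scaled library total, and RPKM values that equal 1000 × CPM / gene length. All 114253 CPM values above 0 were whole multiples of 1 read within 0.001 read (100%), so reads were recovered for edgeR, which called 112 genes, and DESeq2.

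Differences on log2(CPM + 1) were tested with limma 3.58.1 (R 4.3.3), with group as the sole term, intensity trend, two-sided, 4 residual degrees of freedom, 12980 genes. edgeR 4.0.16 and DESeq2 1.42.0 were alternatives, with other pseudocounts, filters, scaling, library weights, a replicate block and leaving out each library. The procedure was tested on simulated data. There limma recovered 37.4% of 2-fold and 90.6% of 4-fold changes, with 6 false among 130 calls. For edgeR the values were 40.4%, 91.7% and 7 of 135, and for DESeq2 52.5%, 92.7% and 27 of 168. Positions and overlaps come from GENCODE M21 (GRCm38, which is mm10), copies from BLAST+ 2.17.0 (at least 95% identity), promoters from RefSeq. Members and lists were chosen with earlier results of these data known. Named genes are all members, and of each pathway list those past the threshold and up to 4 with the smallest p; Cxcl10, Ifnar1, Ifnar2, Ifngr1, Ifngr2 and Ifnlr1 are given beside them; 1 gene of the lists is not reported here. Replicates are biological per the series' design text, and p-values measure the spread between these libraries.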

Additional observations from a re-analysis of the deposited data

How the results depend on the processing

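Rsad2 kept its direction in every alternative. It passed the threshold in 12 of 16 and missed it without a filter on low values (limma adjusted p = 0.054) and without each high_iron library. The count of genes called was 133 (34 without a filter, 424 with DESeq2, 83 on RPKM, 540 with library weights, 402 with the replicate block, and 27 to 183 with 1 library left out). Of the members, 1 was called (0 without a filter, 3 with DESeq2, 2 with library weights, 3 with the replicate block, and 0 to 1 with 1 library left out). The further calls were Ifit3b and Oasl2 with DESeq2, Oasl2 with weights, and Ifit3 and Ifit3b with the block. Replicate numbers are shared between groups. Deviations of same-numbered libraries correlated over genes with r of 0.13, 0.32 and 0.06, and those of differently numbered libraries with r from -0.39 to 0.20. These values cannot settle whether same-numbered libraries are paired, and the block is given as an alternative only. The type I median was 0.24 with library weights. Leaving out 1 library, medians ran from 0.25 to 0.49 over all members, 0.28 to 0.50 for type I members and 0.16 to 0.44 for GBP and IRG members.

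Signs changed for 9 members, none of which passed. With library weights Irf1, Ifi44 and Gbp2 were at -0.019, -0.00016 and -0.10. With 1 library left out, Ddx58 ran from -0.012 to 0.13, Gbp5 from -0.048 to 0.28, Isg15 from -0.28 to 0.067, Xaf1 from -0.60 to 0.15, Gbp2 from -0.015 to 0.26, Ifi44 from -0.063 to 0.31, Zbp1 from -0.062 to 0.48 and Ifih1 from -0.21 to 0.040. The counts of members with positive values and of members with high_iron entirely above, with a library left out, were chosen after seeing the data. With 3 libraries per group, the 95% intervals of 19 of the 32 members include 0.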
